A study of Mus musculus with 12 samples.

Results

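The genes described here encode 9 proteins that bind microtubules or build neurofilaments: the microtubule-associated protein genes Map1a, Map1b, Map2, Map4, Map6 and Mapt, and the neurofilament genes Nefl, Nefm and Nefh. They were taken by name from the RefSeq annotation of the mouse build GRCm38, and their m1A peaks are those whose summit, the point of highest coverage, lies inside the gene span. All 9 had a peak, as did 6658 of the 49997 annotated genes (13.3%), a base that also includes non-coding genes. They held 108 peaks at 44 of the 13572 sites of the series, where a site is a set of peaks from the 6 lists that share at least 1 bp.

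The study compared the caudate putamen, the dorsal striatum, of Tet1 KO mice with that of floxed controls. All animals were adult male Tet1 fl/fl mice injected with AAV into the caudate putamen and sampled 2 weeks later. The KO group received AAV-Cre-EGFP and is labelled Tet1 delta/delta, and the control group received AAV-EGFP and is labelled Tet1 fl/fl. Each group had 3 m1A pull-downs, made with an m1A antibody from 90% of the fragmented total RNA, and 3 inputs from the remaining 10%. The deletion is limited to cells that the injected virus reached, so a KO library can mix RNA of cells with and without Cre, and the labels name no promoter that drives it. The labels do not say that libraries of 1 group came from separate animals, so each p reflects the variation among libraries, part of which may be technical. The peak lists hold no expression levels, and Tet1 RNA was not analysed here.

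m1A is adenosine methylated at the N1 position, which blocks ordinary base pairing. It is written on transfer RNAs and some messenger RNAs by TRMT6 with TRMT61A and can be removed by ALKBH3. TET1 is an oxygenase known for oxidising methylated cytosine in DNA. Microtubules carry transport along axons and dendrites, and the proteins bound to their sides set how stable they are and how they are spaced. MAP2, tau (the product of Mapt) and MAP4 form 1 family with related microtubule-binding repeats. MAP1A and MAP1B are large proteins of another family, each cleaved into a heavy and a light chain. Neurofilaments are the intermediate filaments of neurons, built in axons from a light, a medium and a heavy subunit.

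Depth differed between the groups. The caller used 1235247 to 2508102 pull-down tags in KO libraries and 459332 to 1097292 in control libraries, so every KO library was deeper than every control library. KO libraries 1, 2 and 3 had 3782, 6947 and 3057 peaks, and control libraries 1, 2 and 3 had 3179, 3444 and 3004. Control 1 was called with all duplicate tags kept and from the fewest tags, and KO 2 had the most tags and the longest list. Genotype comparisons of peak number, sites and covered length that rest on these libraries are given with and without them. That of fold enrichments is given with all libraries only. Of 14 markers of medium spiny neurons, the main neurons of the striatum, 11 had a peak, 4 to 9 per library in each genotype, while Drd1, Tac1 and Pdyn had none. Oligodendrocyte markers (7 of 10 with a peak) numbered 4 to 6 in KO libraries and 0 to 6 in control libraries, with the 0 in control 1. Astrocyte markers (5 of 10) numbered 3 in each KO library and 0 to 3 in control libraries, again with the 0 in control 1. Microglial markers (3 of 10) numbered 0 to 3 in KO libraries and 0 to 1 in control libraries. Endothelial markers (2 of 5) numbered 0 to 1 in each genotype, and markers of cortical excitatory neurons (4 of 7) 1 to 2 in KO libraries and 1 to 3 in control libraries. Mog, Olig2 and Cldn11 of the oligodendrocyte list, Aqp4, Aldoc, Aldh1l1, Gja1 and S100b of the astrocyte list, and Csf1r, P2ry12 and Tmem119 of the microglial list had no peak. The part of cell composition in the results below was not tested.

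The 9 genes were called in both genotypes, and the numbers of their peaks per library overlapped between them. KO libraries 1, 2 and 3 held 17, 32 and 12 of their peaks, and control libraries 1, 2 and 3 held 3, 22 and 22. The ranges overlap, with the deepest KO library highest and control 1 lowest. The mean was 20.3 ± 10.4 in KO and 15.7 ± 11.0 in control (SD, n = 3 each). That difference of 4.67 peaks became −7.50 without control 1 and KO 2. As a share of each list the 9 genes made up 0.449%, 0.461% and 0.393% in KO libraries and 0.0944%, 0.639% and 0.732% in control libraries. By share, controls 2 and 3 lay above all 3 KO libraries and control 1 below them. All 9 genes had a peak in KO 2, control 2 and control 3, whereas KO 1 and KO 3 had a peak in 6 of them and control 1 in 2, Map1b and Nefm.

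**Figure D1:**
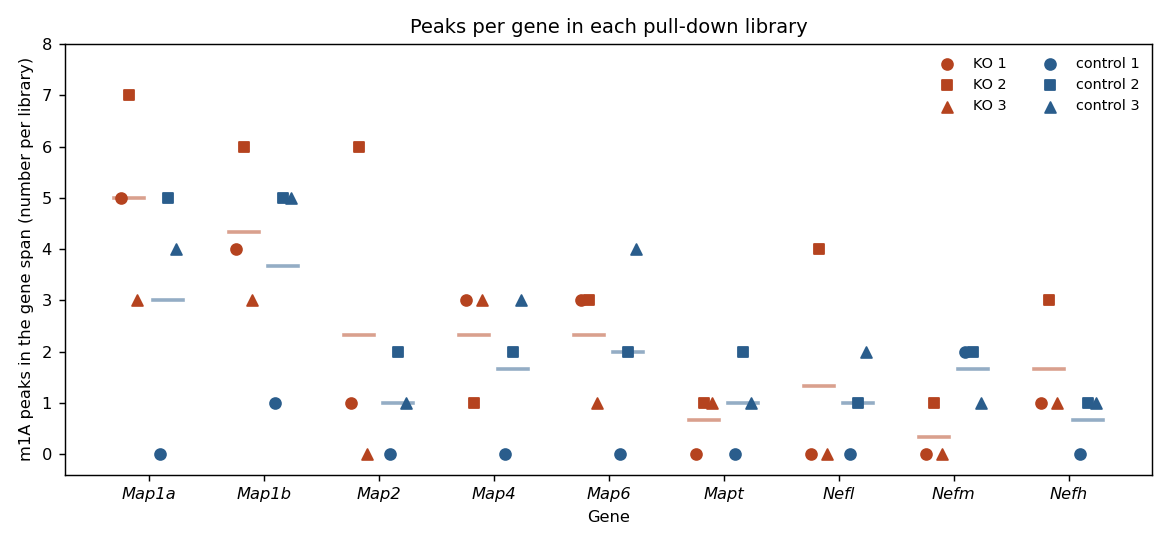
Number of m1A peaks in each gene span (vertical axis) by gene (horizontal axis), with KO libraries in red to the left of control libraries in blue; markers are libraries and bars are means of 3. The groups overlap for every gene, and KO 2 reaches 7 peaks in Map1a and 6 in Map1b and Map2.

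No gene's peak number separated the genotypes. None of the 9 had more peaks in every KO than in every control library, a pattern found in 2.42% of the 6658 genes with a peak, and none had fewer, a pattern found in 0.946%. By the exact two-sided permutation test the 9 genes gave p from 0.2 (Nefm) to 1, and each had an adjusted p of 1 over all 6658 genes. No gene of the 6658 passed 0.05 with or without adjustment (0% called), since the smallest p that 3 libraries against 3 allow is 0.1.

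Sites in these genes were called in at least 4 libraries, and in both genotypes, more often than all sites were. Of the 44 sites, 12 (27.3%) were called in at least 4 libraries, beside 11.1% of all sites. These 12 are among the 22 of 44 (50%) called in both genotypes, beside 20.8% of all sites. KO libraries alone called 17 (38.6%), of which 16 were in KO 2 alone, beside 51.7% of all sites, and control libraries alone called 5 (11.4%), beside 27.5%. A single library called 19 (43.2%), beside 69.0% of all sites, and 3 of those 19 lay outside KO 2. Sites called in all 6 libraries numbered 0, beside 2.96%, and control 1 called only 2 of the 44. No site was common to the 3 KO libraries and missing from every control (beside 1.41%), or the other way round (beside 0.796%). Whether transcript abundance goes with this sharing was not tested, since the lists hold no expression levels.

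**Figure D2:**
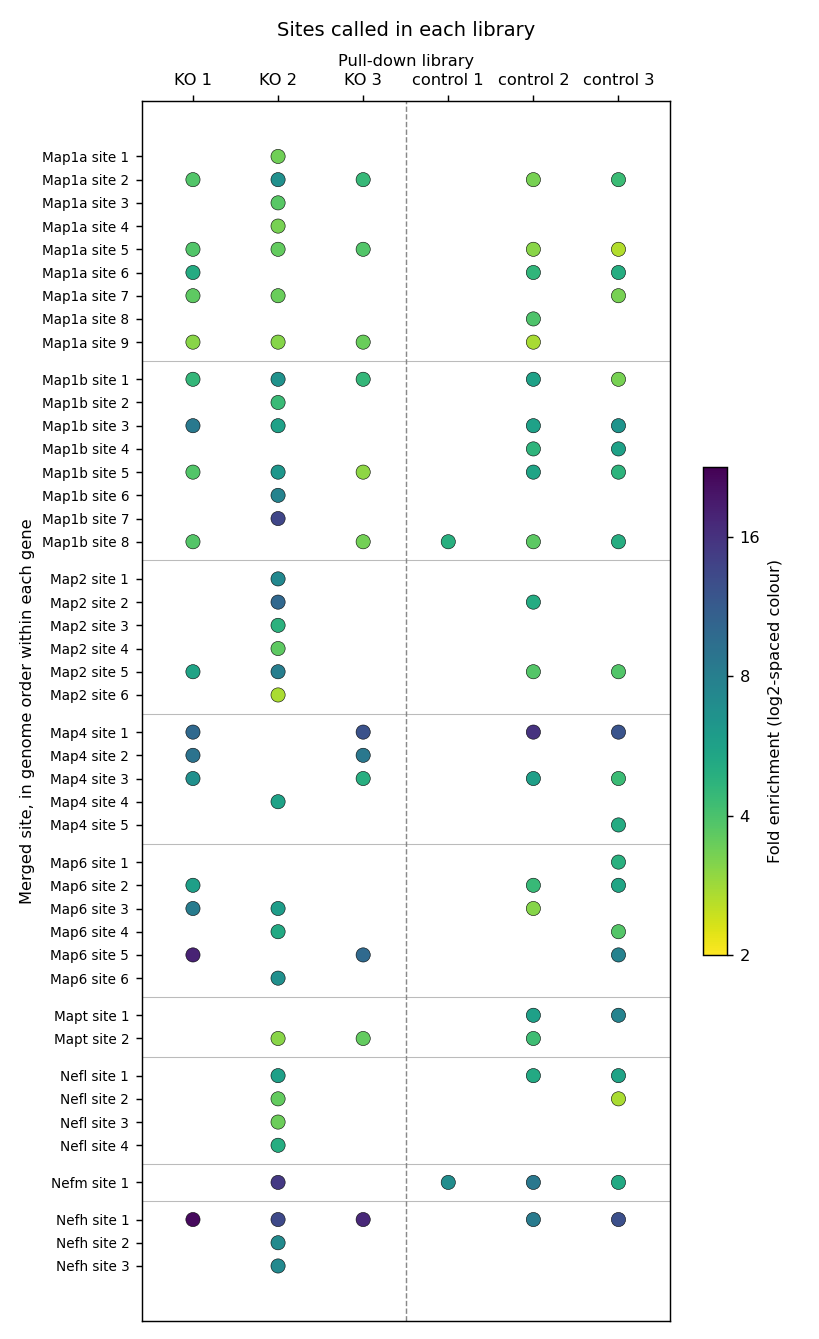
Each row is 1 of the 44 merged sites and each column a pull-down library, KO to the left of the dashed line; a dot marks a called peak and its colour the authors' fold enrichment on a log2-spaced scale (the higher peak where a library has 2). Control 1 has dots only at Map1b site 8 and Nefm site 1, and 16 rows have a dot in KO 2 alone.

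The peaks stood high in coverage and low in fold. Pileup is the authors' tag coverage at the summit, and fold enrichment is that coverage over the local background. Of the 108 peaks, 91 (84.3%) had a pileup above the median of their own list, but only 27 (25%) had a fold enrichment above it. The median peak lay at the 17.3 percentile of its list by fold. Control 1, with its 3 peaks, was the exception: all 3 lay above its list's median fold. Median fold enrichments of the 9 genes' peaks were 5.54, 5.64 and 4.49 in KO libraries 1, 2 and 3 and 6.36, 4.92 and 5.01 in control libraries 1, 2 and 3. The medians of the whole lists were 7.16, 7.23 and 7.53 in KO libraries and 4.65, 7.16 and 7.18 in control libraries.

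**Figure D3:**
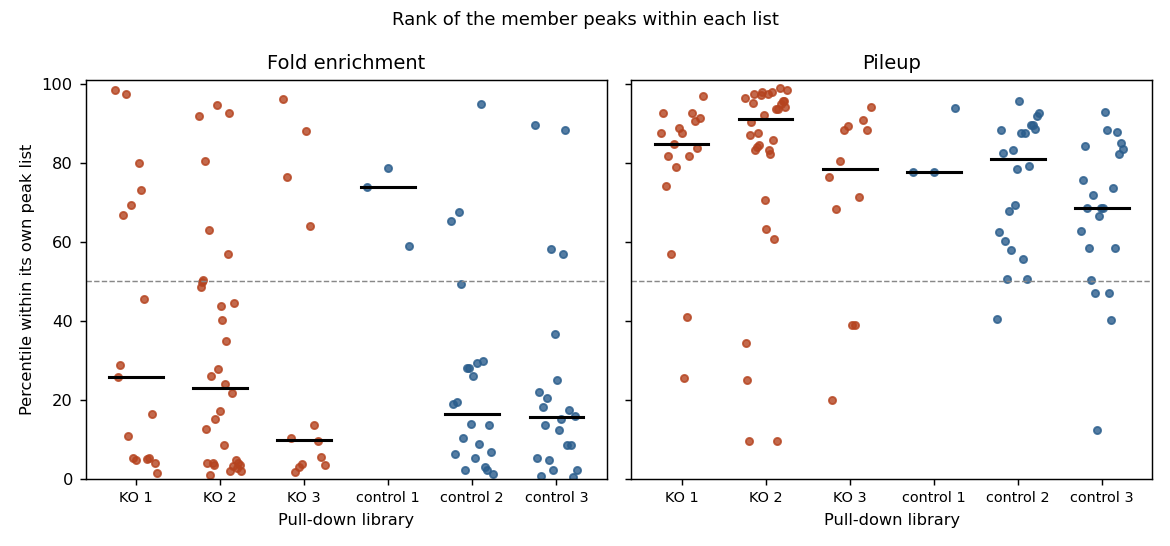
Percentile of each peak of the 9 genes within its own list (vertical axis) for fold enrichment and pileup, by library (KO red, control blue); black bars are medians and the dashed line is the list's middle. In every library except control 1 the median lies below the middle for fold, and in all 6 it lies above the middle for pileup.

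The genes differed in this among themselves. Map1a and Nefl had 0 of 24 and 0 of 7 peaks above their list's median fold, with median percentiles of 3.90 and 15.2. Nefh, at a median percentile of 89.6 (5 of 7 above), Nefm at 70.6 (4 of 6) and Map4 at 54.6 (6 of 12) ranked highest. Map4 had the lowest coverage of the 9, with a median pileup of 17.5, against 54.5 for Map1a.

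Map1a encodes the MAP1 protein of mature neurons, abundant in dendrites. Its span is on chromosome 2 from 121289590 to 121310832 on the forward strand. It held 5, 7 and 3 peaks in KO libraries 1, 2 and 3 and 0, 5 and 4 in control libraries 1, 2 and 3, and the exact permutation p was 0.5. Its 24 peaks tie with those of Map1b, and only 0.571% of the 6658 genes had as many or more. The median gene with a peak had 2. All 24 summits lay within 8.71 kb of the 21.2 kb span, which is 41.0% of it, from the middle towards the 3′ end, and none lay near the listed start. Most of the MAP1A protein is known to be encoded by 1 very large exon, but whether these summits are exonic was not analysed here.

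At Map1a 3 sites were called in at least 4 libraries. Site 2, from 121300925 to 121301665, had fold enrichments of 3.85, 6.79 and 4.45 in KO libraries 1, 2 and 3 and of 3.28 and 4.32 in controls 2 and 3. Its pileups were 54, 130 and 55 in KO libraries and 52 and 45 in controls 2 and 3. The pileup of 130 is the highest among the 108 peaks, in the library with the most tags. Site 5, from 121304453 to 121304764, had fold enrichments of 3.88, 3.58 and 3.87 in KO and of 3.09 and 2.65 in controls 2 and 3. Site 9, from 121309073 to 121309292, lay 1.68 kb before the end of the span and had 3.09, 3.11 and 3.48 in KO and 2.76 in control 2 alone. Sites 5 and 9 were thus called in all 3 KO libraries at folds above those of the controls that called them, although each value comes from its own library's background and no test compares them. Both lie among the lowest folds of their lists, at the 0.466 to 5.46 percentile. Every KO fold lay above every control fold at 24.1% of the series' sites called in both genotypes and in at least 3 libraries.

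Map1b encodes the MAP1 protein of growing axons, which persists in some adult neurons. Its span is on chromosome 13 from 99421464 to 99516602 on the reverse strand. It is the only 1 of the 9 genes with a peak in all 6 libraries, a pattern found in 8.11% of the 6658 genes. The counts were 4, 6 and 3 in KO libraries and 1, 5 and 5 in control libraries (exact permutation p of 0.8). Without control 1 and KO 2, the controls lay above the KO libraries (4 and 3 in KO, against 5 and 5 in control), as in 9.72% of genes at that setting.

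Map1b peaks lay mainly in 2 stretches of the gene. Site 8, from 99516306 to 99516515, lay at the 5′ end, with summits 163 to 218 bp past the start listed by RefSeq. Its fold enrichments were 3.81 in KO 1 and 3.36 in KO 3, and 4.88, 3.68 and 4.97 in control libraries 1, 2 and 3. It was the only site of the 44 called in all 3 controls apart from Nefm site 1, and KO 2 did not call it despite its depth. Towards the 3′ end, 18 of the 24 summits fell within 9.18 kb (9.64% of the span).

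Within that 3′ stretch, 3 sites were called in at least 4 libraries. Site 1, from 99425097 to 99425484, had fold enrichments of 4.52, 6.57 and 4.53 in KO and 5.66 and 3.28 in controls 2 and 3. Site 5, from 99432726 to 99434171, had 3.87, 6.34 and 3.02 in KO and 5.51 and 4.71 in controls 2 and 3. Site 3, from 99429360 to 99429989, had 8.51 and 5.71 in KO 1 and KO 2 and 5.68 and 6.42 in controls 2 and 3. The groups overlap at all 3 sites. Summits of site 3 lay within 44 bp of each other in 4 libraries, the tightest of the 12 sites called in at least 4 libraries, whose median spread was 97.5 bp. Site 4, from 99430818 to 99431043, was called in controls 2 and 3 alone (4.69 and 5.63), and site 7, between the stretches, in KO 2 alone (13.6).

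Promoter windows were listed by RefSeq (GRCm38.p6) for Map1a, Map1b, Map2 and Map4. Those of Map1b and Map4 are shown because both genes carry summits just downstream of a listed start. Map4 has 2 listed starts, and the upstream one is used. Each runs 5′ to 3′ on the gene's strand, with the 250 bases before the start in lower case and the first 50 transcribed bases in capitals. The Map1b window is chr13:99516553-99516852 on the reverse strand, and the Map4 window is chr9:109931524-109931823 on the forward strand.
Map1b: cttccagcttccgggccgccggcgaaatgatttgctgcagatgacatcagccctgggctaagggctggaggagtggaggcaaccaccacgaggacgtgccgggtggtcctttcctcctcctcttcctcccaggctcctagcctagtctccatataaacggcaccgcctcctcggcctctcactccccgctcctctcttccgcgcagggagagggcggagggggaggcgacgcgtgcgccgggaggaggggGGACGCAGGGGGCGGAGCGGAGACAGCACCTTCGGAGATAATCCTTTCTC
Map4: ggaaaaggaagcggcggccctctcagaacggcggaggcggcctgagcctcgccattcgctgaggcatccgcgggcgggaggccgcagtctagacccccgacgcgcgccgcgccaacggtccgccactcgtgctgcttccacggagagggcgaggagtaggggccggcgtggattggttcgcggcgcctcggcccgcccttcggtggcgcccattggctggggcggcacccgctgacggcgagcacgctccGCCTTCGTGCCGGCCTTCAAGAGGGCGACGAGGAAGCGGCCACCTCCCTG
The Map1b peaks began downstream of its window, and 1 Map4 peak, that of KO 3, reached into the Map4 window. The windows hold 65.7% (Map1b) and 73.3% (Map4) G and C, against a median of 52.7% over the 32851 listed windows. They hold 23 and 42 CG dinucleotides, against a median of 7. Both contain the letters GGGCGG on 1 strand or the other, as do 35.7% of all windows. Map1b also contains TATAAA on either strand, as do 13.6%. These letters describe the windows and not bound factors.

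Map4 encodes the member of the MAP2 and tau family found in many cell types, glia included. The gene spans chromosome 9 from 109929841 to 110083954 on the forward strand. It had 3, 1 and 3 peaks in KO libraries and 0, 2 and 3 in control libraries (exact permutation p of 0.7). Site 1 runs from 109931674 to 109932576 across the upstream listed start, and its summits lay 171 to 673 bp past that start. Its fold enrichments were 9.93 and 12.3 in KO 1 and KO 3 and 15.9 and 12.0 in controls 2 and 3, at pileups of only 10 and 16 in KO and 19 and 15 in control. These folds ranked at the 79.8 to 94.9 percentile of their lists, unlike those at the 5′ end of Map1b. Site 3, from 109978779 to 109979089, had 6.78 and 4.93 in KO 1 and KO 3 and 5.79 and 4.34 in controls 2 and 3. Both sites were called by the same 4 libraries, and KO 2 called neither.

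A neighbouring Map4 site was called in KO alone. Site 2, from 109976998 to 109977240, had fold enrichments of 9.02 in KO 1 and 8.53 in KO 3, with summits 37 bp apart, and no peak in KO 2 or any control. It is the only site of the 44 called in more than 1 KO library and no control. The reverse, more than 1 control library and no KO library, was found at 2 sites, Map1b site 4 and Mapt site 1. The share of all sites with either pattern was not counted. Without control 1 and KO 2, Map4 site 2 is a site of both KO and neither control library, as are 7.22% of all sites at that setting. The pileups of that site were 14 and 16, and its folds ranked at the 73.1 and 63.9 percentile of their lists.

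Map2 encodes the main microtubule-associated protein of dendrites and is used as their marker. Its span is the longest of the 9 at 267 kb, on chromosome 1 from 66175202 to 66442583 on the forward strand. It held 1, 6 and 0 peaks in KO libraries and 0, 2 and 1 in control libraries (exact permutation p of 0.9). Of its 10 summits, 7 lay within 3.96 kb, or 1.48% of the span, in the 3′ part of the gene. Site 5, from 66415692 to 66416067, had fold enrichments of 5.54 and 8.11 in KO 1 and KO 2 and 3.83 and 3.87 in controls 2 and 3. Both KO values lay above both control values, and KO 3 and control 1 had no call there. Such an order was found at 24.1% of the series' sites called in both genotypes and in at least 3 libraries. Site 2, from 66380677 to 66380897, had 10.1 in KO 2 and 5.15 in control 2, and the other 4 sites were called in KO 2 alone.

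Mapt encodes tau, the axonal member of that family. The gene lies on chromosome 11 from 104229409 to 104332090. It had the fewest peaks of the 9 genes, with 0, 1 and 1 in KO libraries and 0, 2 and 1 in control libraries (exact permutation p of 1). The peaks made up 2 sites near opposite ends of the gene. Site 1, from 104231533 to 104231726, lay 2.21 kb from the lower-coordinate end and had fold enrichments of 5.75 and 7.65 in controls 2 and 3, with no KO call. Site 2, from 104328683 to 104329073, lay 3.24 kb from the other end and had 3.09 in KO 2, 3.57 in KO 3 and 4.25 in control 2. Its summits lay within 15 bp of each other in these 3 libraries.

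Map6 encodes a protein known for protecting microtubules from cold. The gene lies on chromosome 7 from 99266779 to 99337137. It had 3, 3 and 1 peaks in KO libraries and 0, 2 and 4 in control libraries (exact permutation p of 1). Of 13 summits, 9 lay within 1.59 kb near the lower-coordinate end, at 4 sites, none of which was called in more than 3 libraries. The other 2 sites lay farther in: site 5, from 99293095 to 99293444, at 26.4 kb, and site 6 at 48.9 kb, called in KO 2 alone (6.75). Site 5 had fold enrichments of 18.0 in KO 1, 9.85 in KO 3 and 7.70 in control 3. Its pileups were 19 and 11 in KO and 8 in control. The value of 18.0 is the highest fold of the gene. Both KO values of site 5 were above that of the single control library that called it, an order found at 24.1% of such sites of the series, as above.

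**Figure D4:**
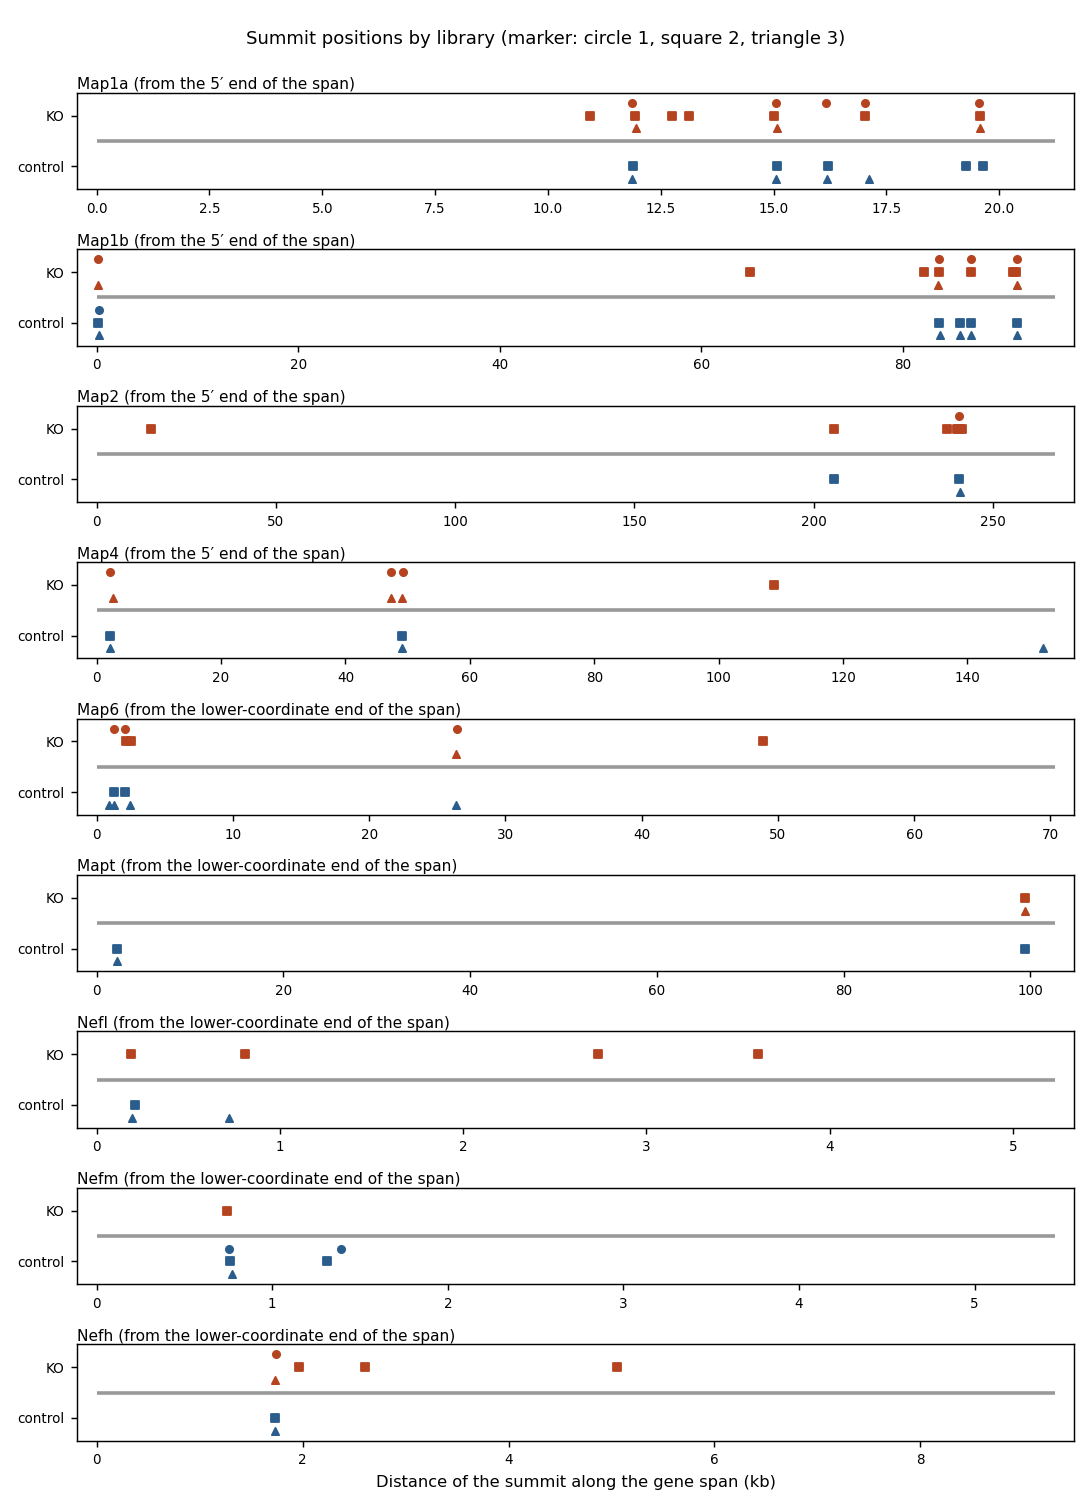
Position of every summit along its gene span in kb (horizontal axes, each to its own scale), KO libraries in red above the grey gene line and control libraries in blue below it; circles, squares and triangles are libraries 1, 2 and 3. Most Map1a, Map1b and Map2 summits lie in the 3′ part of the span, and Map1b has a separate group at its 5′ end.

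The neurofilament genes differed in which libraries called them. Together they had 1, 8 and 1 peaks in KO libraries and 2, 4 and 4 in control libraries, a mean of 3.33 ± 4.04 in KO and 3.33 ± 1.15 in control (SD, n = 3 each). In KO 1 and KO 3 the single neurofilament peak was in Nefh, and neither Nefl nor Nefm was called.

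Nefl encodes the light subunit, which forms the core of the filament. Its span is on chromosome 14 from 68083863 to 68089095. It had 0, 4 and 0 peaks in KO libraries and 0, 1 and 2 in control libraries (exact permutation p of 1). Site 1, from 68083929 to 68084146, lay 0.195 kb from the lower-coordinate end and had fold enrichments of 5.75 in KO 2 and 5.22 and 5.52 in controls 2 and 3. Those 3 libraries had summits within 20 bp of each other. Of the other 3 sites, 1 was called in KO 2 and control 3, and the remaining ones in KO 2 alone.

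Nefm encodes the medium subunit, whose long tail projects from the filament. Its span is on chromosome 14 from 68119545 to 68125004. It had 0, 1 and 0 peaks in KO libraries and 2, 2 and 1 in control libraries (exact permutation p of 0.2, adjusted to 1 over all genes). The groups touch at 1 peak, in KO 2 and control 3. All 6 peaks merged into 1 site, from 68120091 to 68121060, with fold enrichments of 15.1 in KO 2 and up to 6.95, 8.58 and 5.22 in control libraries 1, 2 and 3. The single KO 2 peak was 970 bp long and spanned both peaks of controls 1 and 2. Covered length was 0, 970 and 0 bp in KO libraries and 410, 442 and 170 bp in control libraries, which overlap.

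Nefh encodes the heavy subunit, which carries the longest and most phosphorylated tail. Its span is on chromosome 11 from 4938754 to 4948064. It had 1, 3 and 1 peaks in KO libraries and 0, 1 and 1 in control libraries (exact permutation p of 0.6). Site 1, from 4940084 to 4941057, had fold enrichments of 21.2, 13.2 and 17.2 in KO libraries 1, 2 and 3 and of 8.31 and 12.5 in controls 2 and 3. Every KO value lay above both control values, and control 1 had no call. That order was found at 24.1% of the sites of the series called in both genotypes and in at least 3 libraries. That base includes sites with fewer libraries than this one, where the order arises more readily. The share among sites called in 3 KO and 2 control libraries was not counted. Pileups were 42, 82 and 34 in KO and 16 and 23 in controls 2 and 3. Within their own lists the folds ranked at the 98.5, 91.8 and 96.2 percentile in KO and at the 65.2 and 89.6 percentile in controls 2 and 3. The value of 21.2 is the highest fold among the 108 peaks. The site also lies within Gm35321, a long non-coding RNA gene from 4933842 to 4943237, and reads from the 2 genes cannot be told apart here. The same holds for site 2, from 4941259 to 4941498, called in KO 2 alone.

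By covered length Nefh separated the genotypes. Its peaks covered 723, 1374 and 635 bp in KO libraries and 0, 296 and 513 bp in control libraries, a mean of 911 ± 404 bp in KO and 270 ± 258 bp in control (SD, n = 3 each). The exact two-sided permutation p was 0.1, the smallest possible, and adjustment over 6658 genes gave 1. Nefh was the only 1 of the 9 with this pattern. All its peaks except that of site 3, called in KO 2 alone, also lie within Gm35321. The pattern therefore cannot be assigned to Nefh rather than to Gm35321. Covered length higher in every KO library was found in 3.86% of genes and lower in every KO library in 2.07%. This measure was chosen after the peaks were seen, and depth, which was also higher in every KO library, moves with it; its part was not tested. Without control 1 and KO 2 (2 libraries against 2), covered length did not overlap in 7 of the 9 genes. It was higher in KO for Nefh and Map4, beside 12.3% of genes, and lower in KO for Map1a, Map1b, Map2, Nefl and Nefm, beside 20.3%.

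The order of the folds was counted over the 19 sites called in both genotypes and in at least 3 libraries. Every KO fold lay above every control fold at 11 of the 19 (57.9%), beside 24.1% of the 2179 such sites of the series. Every KO fold lay below every control fold at 1 (5.26%), Mapt site 2, beside 19.1%, and the folds overlapped at 7 (36.8%), beside 56.8%. Only Map1a site 5, Map2 site 5 and Nefh site 1 of the 11 had at least 2 libraries of each genotype. KO 2 was the only KO library at Nefl site 1 and Nefm site 1. The count was not repeated without control 1 and KO 2, and it was not among those planned beforehand. Sites of a gene share libraries and each fold is relative to its own library's background, so these shares are a description, and the part of depth in them was not tested.

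Of the 108 summits, 58 (53.7%) lay within 5 kb of an end of the span, beside 51.8% of all 20992 summits in protein-coding spans. By library the shares were 47.1%, 46.9% and 50% in KO and 100%, 59.1% and 59.1% in control, the 100% being the 3 peaks of control 1. Over all protein-coding spans they were 58.9%, 36.6% and 62.7% in KO and 35.0%, 64.9% and 67.5% in control, so the 9 genes lay on either side of them. All 7 summits of Nefl, all 6 of Nefm and all 7 of Nefh count among them, as any summit would in spans of 5.23 to 9.31 kb.

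Among other genes of microtubules and filaments, 47 of 66 had a peak: 22 of 34 microtubule-binding proteins, 16 of 20 kinases and enzymes, and 9 of 12 filament and linker proteins. Together these are 71.2% of the list, beside 13.3% of all annotated genes, a base that also includes non-coding genes. A peak in all 6 libraries was found in 7 of the 47 (14.9%), beside 8.11% of all genes with a peak. These were Map9, a protein of the mitotic spindle (fold enrichments of 6.21 to 19.0), Map7d1, a relative of the kinesin-recruiting MAP7 (5.38 to 13.0), and Clip2, a protein of growing microtubule ends (5.16 to 8.76). The kinases Gsk3b (4.52 to 10.2) and Mark4 (4.54 to 16.7), which phosphorylate tau, and Ttll7, which adds glutamate chains to tubulin (7.53 to 27.3), were called in all 6 as well. So was Synm, the intermediate filament protein synemin (4.81 to 12.4). KO libraries alone called 12 of the 47 (25.5%), beside 34.0% of all genes with a peak, and control libraries alone called 5 (10.6%), beside 22.4%. Stmn4, a stathmin that binds free tubulin, had 2, 1 and 1 peaks in KO libraries and 0 in each control, with highest KO fold enrichments of 5.61, 5.32 and 4.86. Mark4 had 1 peak in each KO library and 2, 3 and 2 in control libraries. Stmn4 and Mark4 were the only 2 of the 66 whose peak numbers did not overlap between genotypes, beside 2.42% (KO higher) and 0.946% (KO lower) of all genes with a peak. No gene of this list passed the exact permutation test, and the median difference in peaks was 0.333 (KO minus control), the same as over all genes with a peak.

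The 9 genes were set beside other cytoskeletal genes. They had 44 sites in 9 genes, all with a peak. Actin and tubulin genes had 15 sites in 16 genes, 8 of them with a peak. Spectrin and ankyrin genes had 53 sites in 8 genes, 7 of them with a peak. Counting genes without a peak, the 9 genes held 12 peaks per gene, actin and tubulin genes 2.94 and spectrin and ankyrin genes 10.8. Per 10 kb of span the values were 1.48, 4.67 and 0.492 in the same order. Among genes with a peak, 1 of 9, 4 of 8 and 2 of 7 had a peak in all 6 libraries, beside 8.11% of all genes with a peak. On the same base, control 1 called 2 of 9, 4 of 8 and 3 of 7, and its share over all genes was not counted. These shares describe the lists, and their differences were not tested.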

How the data were processed

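m1A pull-downs of caudate putamen RNA were examined in 6 libraries, 3 per genotype. Tools listed in the submitters' processing notes are HISAT2 2.1.0, MACS2 2.2.6 and cutadapt 2.8, with the build GRCm38. Per the file headers, each pull-down was called by MACS2 with its matching input as background, a q-value limit of 0.01 and an extension of 150 bp. Per the file headers, control 1 kept every duplicate tag, while the other libraries kept at most 1 tag per position. The deposited pileup is a signal, the tag coverage at the summit. The deposited fold enrichment is a ratio over the local background, and the deposited −log10 values are those of the p-value and q-value. These are the authors' values of single peaks, used to describe and rank peaks within a list.

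From these lists, a peak was given to each gene whose RefSeq GRCm38.p6 span held its summit. All 9 genes matched by symbol. Summits that fell in over 3 genes (2 peaks, both outside the 9 genes) were not used. Sites are peaks of the 6 lists merged where they shared at least 1 bp. Peaks per gene were compared over libraries with an exact two-sided permutation test of 20 assignments, run on all 6658 genes with a peak and adjusted by Benjamini-Hochberg (Python 3.11.15, numpy 2.4.6), after the test had been tested on simulated data. A test of 3 libraries against 3 cannot give a p below 0.1. Alternatives were a −log10 q of at least 5, a fold enrichment of at least 4, lists of equal length, any overlap with the span, another merging of peaks, the replicate numbers as pairs and libraries left out. Sites called in at least 4 libraries, or in all libraries of 1 genotype and none of the other, were named in full. Genes of the wider list were named when they had a peak in all 6 libraries or in all libraries of 1 genotype and none of the other. The genes and lists were chosen with earlier results of these data known. Exons were not used here. The same-numbered libraries did not deviate together (correlations of −0.05, −0.01 and 0.02 over 6658 genes), so the numbers were not taken as pairs.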

Additional observations from a re-analysis of the deposited data

How the results depend on the processing

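The number of peaks in the 9 genes depended on control 1 and KO 2. The difference of 4.67 peaks per library (KO minus control) ran from −1.67 to 8.83 when 1 library was left out, and the negative values came without KO 2 (−1.17) and without control 1 (−1.67). Without both it was −7.50. It kept its sign at a −log10 q of at least 5, at a fold enrichment of at least 4, with lists of equal length and with any overlap with the span (1.33 to 5.67). With the replicate numbers as a replicate block it was 4.67 again, and no gene's adjusted p passed 0.05. Across all settings the adjusted p per gene ran from 0.814 to 1.

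Sites called in every library numbered 0, with 0 to 5 when 1 library was left out (5 without control 1, beside 6.40% of all sites, and 1 without KO 2, beside 5.30%) and 8 without control 1 and KO 2 (27.6% of the sites left, beside 14.1% of all sites at that setting). Sites called in all KO and no control libraries numbered 0 to 1 with 1 library left out (1 without KO 2, beside 5.32%, or control 2, beside 2.23%), and 1 without control 1 and KO 2 (3.45%, beside 7.22%). Sites called in all control and no KO libraries numbered 0 to 2 (2 without control 1, beside 3.61%, and 1 without KO 2, beside 1.60%), and 4 without control 1 and KO 2 (13.8%, beside 8.12%). Genes whose peak numbers did not overlap between genotypes were 0 to 1 with 1 library left out (1 without KO 2, beside 8.34% of all genes, or without control 3, beside 5.18%) and 3 without control 1 and KO 2 (33.3%, beside 18.3%). Those 3, Map1b, Nefl and Nefm, were all lower in KO, beside 9.72% of genes lower and 8.61% higher at that setting. The 1 gene at the other settings, Nefm, was lower in KO as well, beside 2.60% without KO 2 and 1.81% without control 3. Genes whose covered length did not overlap, a measure and settings chosen after seeing the data, were 1, higher in KO (beside 3.86%). With 1 library left out they were 1 to 3. Without KO 2 they were 3, with 2 higher in KO (beside 9.32% of genes) and 1 lower (beside 4.83%). At each other such setting 1 was higher in KO (beside 4.98% to 9.51%). Without control 1 and KO 2 they were 7, with 2 higher in KO (beside 12.3%) and 5 lower (beside 20.3%). The other settings left the counts of sites, and of genes by peak number, at 0.

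Per gene, no setting passed the threshold, and none could, since none allows a p below 0.1. The sign of a difference turned in 14 cases. Without control 1 and KO 2 these cases were Map1a (−0.50), Map1b (−1.50), Map2 (−1), Map6 (−1) and Nefl (−1.50). Without KO 2 they were Map1b (−0.17), Map2 (−0.50) and Nefl (−1), and without control 1 Map1b (−0.67), Map4 (−0.17), Map6 (−0.67) and Nefl (−0.17). Mapt turned without control 2 (0.17), and Nefl with lists of equal length (−0.33). With 1 library left out the ranges were −0.67 to 1.33 for Map1b, −0.50 to 2.5 for Map2, −0.17 to 1.33 for Map4, −0.67 to 1.33 for Map6, −0.83 to 0.17 for Mapt and −1 to 1 for Nefl. A peak list holds no counts outside its peaks, so an uncalled site may still carry m1A below what that library's depth can detect.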
